A study of Bos taurus with 6 samples.

Results

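Thymosin beta-4 mRNA was the most abundant transcript in every library of bovine oocytes examined here, and this account follows it together with the genes that hold, deliver and turn over actin. The set was named by gene symbol: the thymosins TMSB4X and TMSB10, the cytoplasmic actins ACTB and ACTG1, the profilins PFN1 and PFN2, the cofilins CFL1 and CFL2, and the filament nucleators FMN2 and SPIRE1. The set was chosen by the measured level of TMSB4X, the top rank in these same libraries, with related genes added by function, so levels are given as a description, with no test. Of the 10 genes, 9 were matched among the 17325 genes of the deposited tables and all 9 passed, in both groups, the filter of a mean of at least 1 FPKM (mapped fragments per kilobase of transcript, relative to all mapped fragments of the library). FMN2 matched no symbol and was not analysed here.

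The oocytes (Bos taurus) had been matured in vitro to metaphase II, and the study compares a negative control group with an MTFP1 knockdown group, 3 libraries each, titled NC and siMTFP1. The labels give no breed, animal, culture, number of oocytes per library or method of delivery, and do not say that replicates are separate cultures, so p-values here measure only the spread between these libraries, which may be technical. MTFP1 encodes an inner mitochondrial membrane protein tied to fission. In FPKM it measured 0.53, 0.55 and 0.05 in libraries 1, 2 and 3 labelled control, and 0.43, 0.58 and 1.15 in the knockdown-labelled ones 1, 2 and 3. The measured level was therefore not lower in the knockdown-labelled libraries (exact two-sided permutation test, p = 0.4, smallest possible p 0.1). MTFP1 averaged 0.55 FPKM over the 6 libraries, under the filter of 1 FPKM, so these values are too low to judge the knockdown. Every direction below is that of the labels.

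The tables carry no read totals, so the sequencing depth is unknown. Summed over genes, a library held between 784366 and 892790 FPKM, and 15120 to 15533 genes lay above 0. All 16 oocyte markers were matched, and their summed level was 29638 to 30900.1 FPKM in the control-labelled group and 28503 to 29074 in the knockdown-labelled group. This gap came from ZP2, at 4768, 4427 and 4503 FPKM in control 1, 2 and 3, and 3111, 3053 and 3241 in knockdown 1, 2 and 3. Without ZP2 the group sums overlapped. Of the other markers only NOBOX had groups without overlap, and it was higher in the knockdown-labelled group. The summed level of 25 cumulus and granulosa cell markers was 190 to 394 FPKM in the control-labelled libraries and 228 to 1220 in the knockdown-labelled ones. The highest sum was in knockdown 2, where the protease inhibitor TIMP1 alone gave 955 FPKM, while without TIMP1 the sums ran from 168 to 264 over the 6 libraries. The gonadotropin receptor FSHR was at 0 in 5 of 6 libraries, and 11 of the 25 markers averaged under 1 FPKM. Of 7 matched blood and immune markers, 4 averaged under 1 FPKM, among them PTPRC and CD68, and HBA gave most of the sum.

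Actin exists in cells as free monomers and as filaments, and the genes described here set the traffic between both states. Thymosin beta proteins bind monomers and keep them out of filaments, profilins hand monomers to growing filament ends, cofilins sever and dissolve ageing filaments, and SPIRE1 starts new ones. In mammalian oocytes a cytoplasmic actin network, built by SPIRE proteins with the formin FMN2, is known for its part in moving the spindle to the cortex and in polar body extrusion.

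TMSB4X, the main monomer-sequestering thymosin, measured 58052, 51537 and 65314 FPKM in the control-labelled libraries 1, 2 and 3. In the knockdown-labelled libraries 1, 2 and 3 it measured 47559.8, 56679 and 59641 FPKM. The lowest value was in knockdown 1 and the highest in control 3, and the groups overlapped. It ranked first in 6 of 6 libraries and took 6.06% to 7.57% of the summed FPKM. The next gene by mean level was PTTG1, which encodes securin, the inhibitor of separase. Within a library TMSB4X lay 1.82 to 2.26 times above it. The FPKM of a short transcript depends strongly on the length used to divide it, and the sources used here do not give that length.

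TMSB10, the second thymosin of the set, lay at a small part of that level. Its FPKM was 337, 313 and 379 in the control-labelled libraries 1, 2 and 3, and 305, 414 and 513 in the knockdown-labelled ones 1, 2 and 3. Both the lowest and the highest value were in the knockdown group, so the groups overlapped.

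The cytoplasmic actins, which supply the monomers, had far lower mRNA levels per length than TMSB4X, and lower mean levels than TMSB10. ACTB measured 210, 163 and 160 FPKM in control 1, 2 and 3, and 239, 294 and 165 in knockdown 1, 2 and 3. ACTG1 measured 193, 164 and 76.4 FPKM in control 1, 2 and 3, and 225, 298 and 165 in knockdown 1, 2 and 3. For both actins knockdown 2 was highest and knockdown 1 next, while knockdown 3 lay among the controls. Both actins were lowest in control 3, and ACTG1 much more so than ACTB. Their coding sequences are very alike, and the sources used here do not say how reads shared between such genes were divided, so the split between them is uncertain.

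PFN1, the widely expressed profilin, ranked between 38 and 55 among all genes. It measured 2009, 1967 and 2392 FPKM in control 1, 2 and 3, and 1915, 2381 and 2732 in knockdown 1, 2 and 3. PFN2, its paralog best known from neurons, lay between 20.2 FPKM in control 3 and 26.3 in knockdown 3, and the other 4 libraries fell within 25.2 to 26.0. Both profilins overlapped between the groups.

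CFL1, the non-muscle cofilin, was the steadiest of the set. It measured 504, 590 and 544 FPKM in control 1, 2 and 3, and 501, 510 and 534 in knockdown 1, 2 and 3. The muscle cofilin CFL2 lay between 11.6 FPKM in control 2 and 15.5 in control 1, with all 3 libraries labelled knockdown in between. SPIRE1 lay between 11.0 FPKM in control 2 and 14.8 in knockdown 1.

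**Figure D1:**
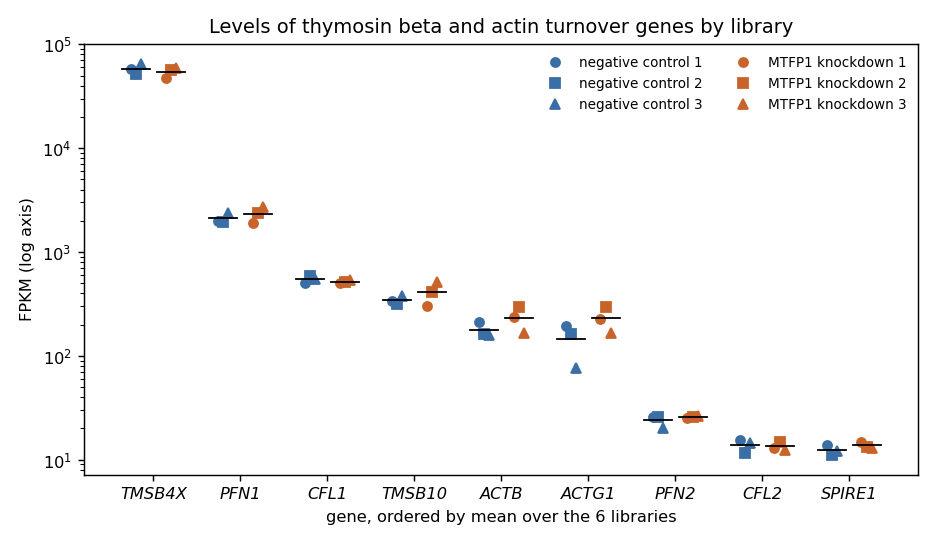
FPKM of 9 genes (log axis) in each library, ordered by mean level, with blue symbols for the control-labelled libraries, orange symbols for the knockdown-labelled ones and black bars for the group means (n = 3). TMSB4X stands above all others at 47559.8 to 65314 FPKM, and in each gene the symbols of the groups overlap.

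On the per-length FPKM scale, means over the 6 libraries ran in the order TMSB4X (56464 ± 6238, SD), PFN1 (2233 ± 322), CFL1 (530.5 ± 33.9), TMSB10 (377 ± 78.5), ACTB (205 ± 53.9), ACTG1 (187 ± 73.5), PFN2 (24.8 ± 2.28), CFL2 (13.7 ± 1.55) and SPIRE1 (13.0 ± 1.33). Neighbours in this order had separate ranges except for 3 pairs. CFL1 exceeded TMSB10 in 6 of 6 libraries, by 1.04 to 1.89 times, although the ranges overlapped. ACTB exceeded ACTG1 in 3 of 6 libraries, and CFL2 exceeded SPIRE1 in 4 of 6. The levels of these last pairs did not differ beyond their spread. In each paralog pair outside the actins, 1 form dominated in all libraries. PFN1 lay 76.0 to 118 times above PFN2, and CFL1 lay 32.5 to 51.0 times above CFL2.

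None of the 9 genes passed the test between the groups. The values were compared as log2(FPKM + 1) with limma, which fits a linear model per gene and moderates its spread, with Benjamini-Hochberg adjustment over 9730 tested genes at a threshold of 0.05. In this comparison 0 of 9 genes passed, against 0.0% of all tested genes. At an unadjusted p under 0.05 there were also 0 of 9, where 6.53% of all tested genes lay. The groups did not overlap in 0 of 9, against 11.0% of all tested genes. The mean was higher in the knockdown-labelled libraries for 6 genes and lower for 3, where 54.2% of all tested genes were higher. The median difference of the 9 was 0.13 on the log2 scale and that of all tested genes was 0.02.

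The intervals show which differences the data leave possible. The difference of TMSB4X, knockdown minus control, was -0.09 on the log2 scale (SE 0.12, 95% interval -0.38 to 0.19, limma adjusted p = 0.939). As a ratio of knockdown to control this interval runs from 0.771 to 1.14. TMSB10 differed by 0.23 (95% interval -0.20 to 0.66) and PFN1 by 0.13 (-0.21 to 0.48). Both values moved most with a single library of the knockdown group: without knockdown 3 they were 0.056 and 0.014, and without knockdown 1 they were 0.43 and 0.27. PFN2, CFL1, CFL2 and SPIRE1 each had an absolute difference of at most 0.14, with intervals that lay between -0.41 and 0.48. For 8 of the 9 genes the interval stayed within a log2 difference of 1 in either direction.

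ACTG1, the exception, had the largest difference and the widest interval of the set. Its means were 145 ± 60.9 FPKM (SD, n = 3) in the control-labelled libraries and 229 ± 66.5 in the knockdown-labelled ones. The difference was 0.73 on the log2 scale (SE 0.34, 95% interval -0.06 to 1.51, limma adjusted p = 0.771). Without control 3, the library with 76.4 FPKM, the difference was 0.32 (limma adjusted p = 1.00), and without knockdown 2 it was 0.52. It was 0.99 without control 1 and 0.94 without knockdown 3. ACTB averaged 178 ± 28.2 and 232 ± 65.1 FPKM, and its difference was 0.36 (SE 0.22, limma adjusted p = 0.848), which was 0.17 without knockdown 2 and 0.58 without knockdown 3. In knockdown 2, which had the highest ACTB and ACTG1, the summed cumulus and granulosa markers were also highest, at 1220 FPKM. In knockdown 1, with the next highest actin values, that sum was 234 FPKM, below control 1 (394) and control 3 (325), both of which held much TIMP1. Without TIMP1 the sums were 264 FPKM in knockdown 2, 209 in knockdown 1, 203 in control 1, 196 in knockdown 3, 177 in control 2 and 168 in control 3. This is the order of the libraries in ACTB and in ACTG1, but it appears only when TIMP1 is left out and rests partly on near ties. ACTB was 164.54, 162.96 and 160.40 FPKM in knockdown 3, control 2 and control 3. ACTG1 was 165.14 FPKM in knockdown 3 and 164.03 in control 2. Single markers ran in different ways. SERPINE2, VIM, INHA and LUM were highest in knockdown 2, TNFAIP6 and PTX3 in control 3, and CYP11A1 in knockdown 3. STAR, the largest after TIMP1, was highest in control 1 (72.6 FPKM), and HAS2 in knockdown 1 (49.9 FPKM). The part of such cells in the actin levels was not tested, and in bulk libraries fewer cells of a type and less RNA per cell cannot be told apart.

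**Figure D2:**
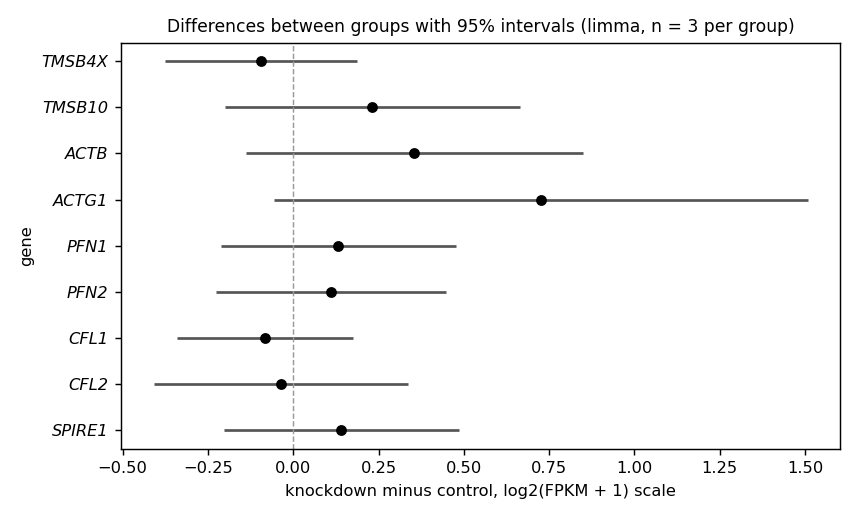
Difference between group means (knockdown minus control, log2(FPKM + 1) scale) for 9 genes, with 95% intervals from limma (n = 3 per group) as lines and a dashed line at 0. Every interval crosses 0, and that of ACTG1, from -0.06 to 1.51, is the widest.

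The genes differed in how steady they were from library to library. The SD of the log2 values over the 6 libraries was 0.09 for CFL1, smaller than in all but 5.48% of the 4558 genes with a mean of at least 10 FPKM. TMSB4X had an SD of 0.16, below the median of 0.21 of those genes, and PFN1 lay close to that median at 0.20. The actins were at the other end. ACTB had an SD of 0.36 and ACTG1 of 0.66, larger than in 88.1% and 97.8% of those genes.

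Some genes of the set shared the libraries in which they were high or low. PFN1 and TMSB10 lay on the same side of their own mean in 6 of 6 libraries, both highest in knockdown 3 and lowest in knockdown 1. The root mean square difference between their centred log2 values was 0.09. TMSB4X shared its side with TMSB10 in 5 of 6 libraries and with PFN1 in 5 of 6. ACTB and ACTG1 also shared their side in 6 of 6. CFL1 lay on the opposite side from both actins in 6 of 6 libraries, with deviations of at most 0.16. Of 36 pairs of these genes, 4 shared their side in all libraries and 3 in none. These counts rest on 6 libraries that each share 1 scaling total. They were not set against pairs of all genes, and are given as a description.

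**Figure D3:**
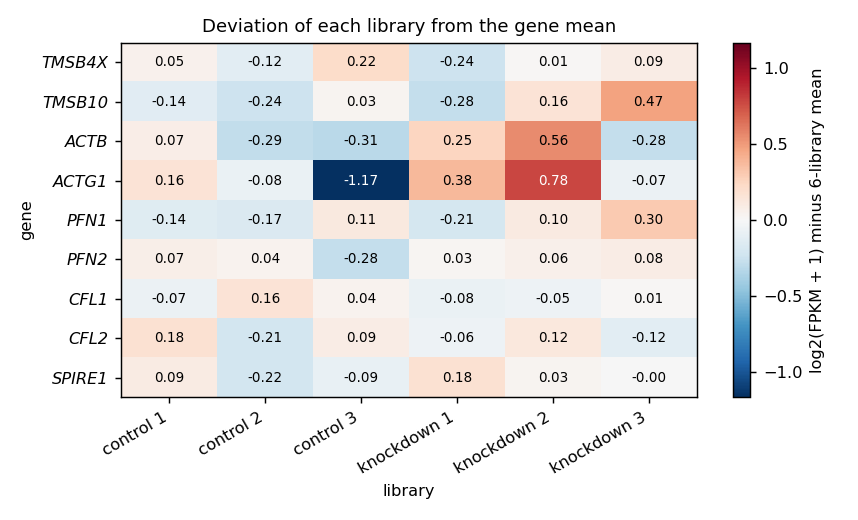
Deviation of each library from the gene's mean over the 6 libraries, as log2(FPKM + 1), for 9 genes (rows) and 6 libraries (columns), with red above and blue below the mean. ACTG1 in control 3 is the deepest blue at -1.17 and ACTG1 in knockdown 2 the deepest red at 0.78, while the CFL1 row stays pale.

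The gene whose pattern over the 6 libraries was most like that of TMSB4X, among 4557 others with a mean of at least 10 FPKM, was MAGOH, a core protein of the exon junction complex. The root mean square difference of their centred log2 values was 0.03, where TMSB4X itself spread by 0.15 around its mean. LOC112449086 and LOC785745 came next at 0.04 each. For ACTB the most alike were the RNA helicase DDX5 at 0.06 and the catenin CTNND1 and the chaperonin subunit TCP1 at 0.09 each. For ACTG1 they were TMEM171 at 0.15, the ubiquitin ligase CBLB at 0.17 and the tubulin TUBB at 0.19. TUBB measured 24.5, 14.6 and 9.30 FPKM in control 1, 2 and 3, and 27.6, 37.3 and 15.9 in knockdown 1, 2 and 3. Control 3 was lowest and knockdown 2 highest, as for ACTG1, which follows from picking genes by likeness of pattern.

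Ratios within a library do not depend on how libraries were scaled, and 5 were compared between the groups by an exact two-sided permutation test, whose smallest p with 3 against 3 is 0.1. TMSB4X exceeded TMSB10 by 172, 165 and 172 times in control 1, 2 and 3, and by 156, 137 and 116 times in knockdown 1, 2 and 3. Here the groups did not overlap, and all 3 libraries labelled knockdown lay below all 3 labelled control. The mean ratio was 170 ± 4.3 (SD, n = 3) against 136 ± 19.9, a log2 difference of -0.33 (exact permutation p = 0.1, adjusted over the 5 ratios 0.5). This is the smallest p that the design allows, so the test could not pass the threshold.

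In FPKM, the summed thymosins exceeded the summed actins by 96.4 to 277 times, a size that depends on the transcript lengths used. The ratio was 145, 159 and 277 in control 1, 2 and 3, and 103, 96.4 and 182 in knockdown 1, 2 and 3. The highest value was in control 3, where ACTG1 was lowest, and the groups overlapped because of knockdown 3. The log2 difference was -0.60 (exact permutation p = 0.3, adjusted 0.5), and -0.31 without control 3.

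ACTB and ACTG1 stood at nearly equal FPKM in most libraries. Their ratio was 1.09, 0.993 and 2.10 in control 1, 2 and 3, and 1.06, 0.988 and 0.996 in knockdown 1, 2 and 3. Control 3 stood apart from the other 5 libraries. The log2 difference of -0.37 (exact permutation p = 0.3) fell to -0.04 without that library. PFN1 over PFN2 averaged 90.9 ± 23.7 and 90.9 ± 14.1 (SD, n = 3; exact permutation p = 1.0), and CFL1 over CFL2 averaged 40.3 ± 9.59 and 38.6 ± 4.42 (exact permutation p = 0.9).

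**Figure D4:**
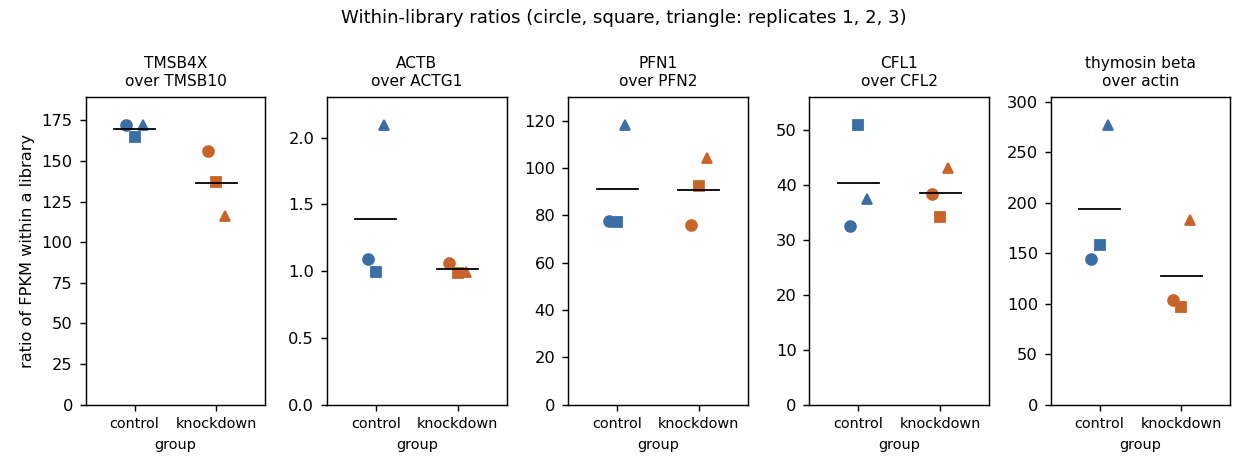
Ratio of FPKM values within each library for 5 pairs, with a linear axis from 0 in each panel, blue for libraries labelled control, orange for the knockdown-labelled ones, and bars for the group means (n = 3). The groups are separate for TMSB4X over TMSB10, at 165 to 172 against 116 to 156, and control 3 stands apart at 2.10 for ACTB over ACTG1.

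The wider actin machinery was followed through 127 further genes in 8 lists by role, of which 122 were matched and 93 passed the expression filter. In the same limma fit 0 of the 93 passed the adjusted threshold, and 5 had an unadjusted p under 0.05, which is 5.38% against 6.53% of all tested genes. All 5 had the higher mean in the knockdown-labelled libraries, but WDR1 and GSN among them reached the filter only through that group. Over all tested genes the split at this p was 376 higher and 259 lower, and 307 and 358 under quantile normalization. The groups did not overlap in 5 of the 93, or 5.38%, against 11.0% of all tested genes. These were WDR1, TWF2, PAK2, FHOD3 and CORO1B, all higher in the knockdown-labelled libraries. WDR1 and FHOD3 among them reached the filter only through that group. The median log2 difference of the 93 was 0.02, as over all tested genes.

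Among proteins that bind or recycle monomers (10 tested of 12 matched), 5 had a higher and 5 a lower mean, with a median of 0.01. The depolymerising factor DSTN, a relative of cofilin, was the most abundant at 476 ± 11.3 FPKM (SD, n = 3) in the control-labelled libraries and 484 ± 46.1 in the knockdown-labelled ones, close to the level of CFL1. WDR1, which works with cofilin in taking filaments apart, measured 0.96, 0.68 and 0.44 FPKM in control 1, 2 and 3, and 1.27, 3.46 and 1.50 in knockdown 1, 2 and 3. Its groups did not overlap, yet its log2 difference of 0.81 (SE 0.27) did not pass (limma adjusted p = 0.720), and it passed the expression filter only through the knockdown-labelled libraries. The twinfilin TWF2 averaged 4.71 ± 0.570 and 5.88 ± 0.229 FPKM, and the testis-enriched profilin PFN4 averaged 9.71 ± 2.35 and 7.29 ± 2.29.

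Other actin isoforms were scarce. Of 4 matched, only the smooth muscle actin ACTA2 passed the filter, at 7.73 ± 1.32 FPKM (SD, n = 3) in the control-labelled libraries and 7.59 ± 3.48 in the knockdown-labelled ones. The skeletal, cardiac and enteric actins ACTA1, ACTC1 and ACTG2, singled out after their values were seen, averaged 0.0250, 0.147 and 0.393 FPKM over the 6 libraries.

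Cofilin is switched off by kinases and on by slingshot phosphatases, and 9 of 13 matched genes of this group were tested, 6 with a higher and 3 with a lower mean. The phosphatase SSH1 was the most abundant at 45.0 ± 5.31 and 47.8 ± 2.56 FPKM (SD, n = 3). The LIM kinases LIMK1 and LIMK2, singled out after their values were seen, averaged 0.0917 and 0.377 FPKM over the 6 libraries and lay below the filter. SSH3 averaged 4.59 ± 0.836 and 5.92 ± 0.840 FPKM. The kinase PAK2 averaged 23.0 ± 0.578 and 27.0 ± 4.33, without overlap between the groups, and PAK1 averaged 3.06 ± 0.564 and 3.55 ± 0.684.

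Formins elongate unbranched filaments, and the ARP2/3 complex starts branched ones. Of the 9 tested formins and related nucleators, 5 had a higher and 4 a lower mean. FMNL2 was the most abundant at 53.5 ± 3.72 and 51.5 ± 6.85 FPKM (SD, n = 3), above SPIRE1. FMNL1 averaged 12.0 ± 2.13 and 13.6 ± 1.19 FPKM, FMNL3 averaged 1.23 ± 0.478 and 1.62 ± 0.0289, and FHOD3, which reached the filter only through the knockdown-labelled libraries, averaged 0.953 ± 0.131 and 1.26 ± 0.0902. Of the 24 tested genes of the ARP2/3 complex and its activators, 15 had a higher and 9 a lower mean, with a median of 0.01. The subunit ARPC3 averaged 197 ± 26.2 and 166 ± 33.7 FPKM, the subunit ARPC1B 5.87 ± 1.46 and 7.92 ± 0.777, and the branch stabiliser cortactin (CTTN) 32.8 ± 5.86 and 41.3 ± 3.47. In these lists 0 genes had an unadjusted p under 0.05 by limma.

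Capping, severing and coronin genes held 3 of the 5 genes with an unadjusted p under 0.05, among 14 tested. That is 21.4%, against 6.53% of all tested genes, in a small list that was not tested as a set. The abundant capping subunit CAPZA1 averaged 618 ± 24.7 and 592 ± 39.7 FPKM (SD, n = 3), differing by -0.06 on the log2 scale. CAPG, a capping protein of the gelsolin family, measured 4.60, 2.35 and 1.92 FPKM in control 1, 2 and 3, and 4.36, 18.4 and 10.3 in knockdown 1, 2 and 3. The groups overlapped through knockdown 1, and the log2 difference was 1.47 (SE 0.44, limma adjusted p = 0.646). GSN, the severing protein gelsolin, measured 1.22, 0.14 and 0.73 FPKM in control 1, 2 and 3, and 2.78, 7.90 and 0.83 in knockdown 1, 2 and 3. Its log2 difference of 1.27 was 0.68 without knockdown 2, and it passed the expression filter only through the knockdown-labelled libraries. CORO1B, a coronin of the cell edge, averaged 1.88 ± 0.223 and 3.43 ± 0.875 FPKM without overlap (limma adjusted p = 0.698).

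Crosslinkers, tropomyosins and membrane linkers had 5 genes with a higher and 10 with a lower mean among 15 tested. Ezrin (EZR), which ties filaments to the plasma membrane, was the most abundant at 321 ± 90.4 and 269 ± 47.5 FPKM (SD, n = 3). Radixin (RDX), of the same family, averaged 43.2 ± 2.91 and 38.6 ± 3.23. Tropomyosin TPM4 measured 3.80, 1.98 and 0.74 FPKM in control 1, 2 and 3, and 4.44, 10.1 and 1.68 in knockdown 1, 2 and 3. Its highest value was again in knockdown 2, and the groups overlapped.

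Among myosins and transport genes, 7 had a higher and 4 a lower mean of 11 tested. MYL6, a myosin light chain, measured 53.1, 38.9 and 32.4 FPKM in control 1, 2 and 3, and 52.3, 95.0 and 56.2 in knockdown 1, 2 and 3. On the log2 scale it differed by 0.67 (SE 0.26, limma adjusted p = 0.750), and by 0.41 without knockdown 2. The light chain MYL9 averaged 0.457 ± 0.387 and 1.69 ± 1.55 FPKM (SD, n = 3) and passed the filter only through the knockdown-labelled libraries. RAB11A, a GTPase of the vesicles that move along the oocyte actin network, was abundant at 626 ± 83.1 and 568 ± 8.35 FPKM, and its partner RAB11FIP2 averaged 3.00 ± 0.326 and 3.89 ± 0.728. Of the 93 tested genes of these lists, 23 (24.7%) had their highest value in knockdown 2, against 15.5% of all tested genes. Control 1 and knockdown 1 each held the highest value of 22 (23.7%), against 21.3% and 21.9% of all tested genes. Of the 27 named genes of these lists, 10 were highest in knockdown 2 and 7 in knockdown 1. The 10 were WDR1, SSH3, PAK2, PAK1, ARPC1B, CAPG, GSN, TPM4, MYL6 and MYL9. Each had been named as 1 of the 3 smallest p of its list, a choice made on these same values, and not all had a p under 0.05. WDR1, GSN and MYL9 passed the filter only through the knockdown-labelled libraries, so the filter itself partly set their place in this count. CORO1B was highest in knockdown 1. Knockdown 2 also had the highest summed cumulus and granulosa markers (1220 FPKM, or 264 without TIMP1), and the part of such cells in these values was not tested.

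**Figure D5:**
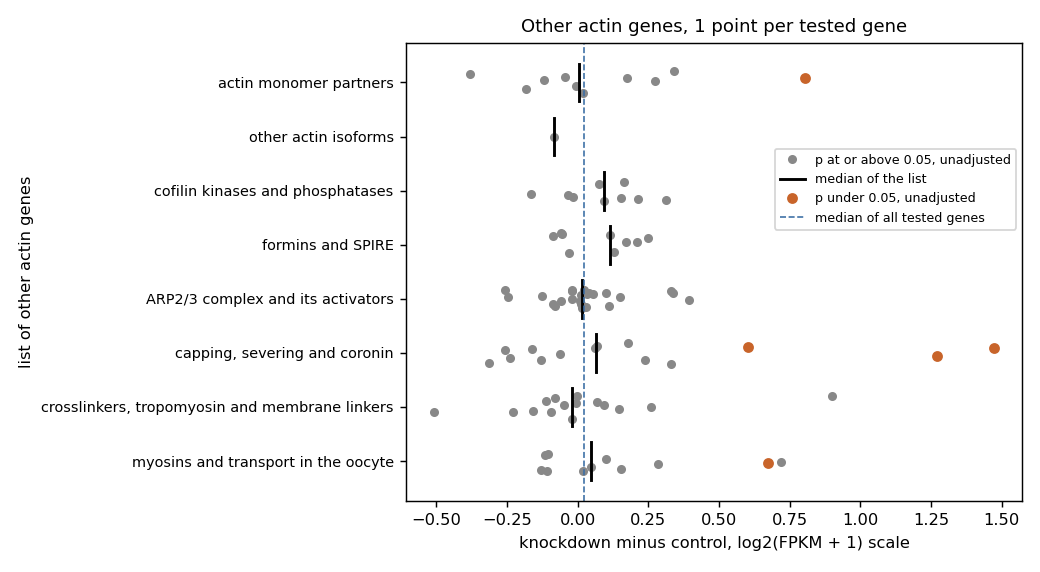
Difference between groups (knockdown minus control, log2(FPKM + 1) scale) for 93 other actin genes in 8 lists, 1 point per gene, with black bars at the list medians and a dashed line at the median of all tested genes. The 5 orange points, with an unadjusted limma p under 0.05, all lie to the right, while the list medians lie between -0.09 and 0.11.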

How the data were processed

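Messenger RNA libraries were made with a BGI kit from RNA extracted with TRIzol, per the labels' protocols. The authors deposited 1 FPKM value per gene and library. Build ARS-UCD1.2, RSEM 1.3.1, HISAT2 2.2.1, DESeq2 1.4.5 and Bowtie2 2.3.4.3 are named, without roles, per the submitters' processing notes. An FPKM value is relative to transcript length and to the library's total. Samples were grouped by title. 24 symbols that had become dates were restored by gene ID (RefSeq, ARS-UCD2.0, names only). Genes averaging at least 1 FPKM were compared as log2(FPKM + 1) with limma 3.58.1 in R 4.3.3 (eBayes with trend, group as the only term), first tested on simulated data. This scale understates changes of low genes. Ratios and MTFP1 were compared by exact permutation. The genes and lists were chosen with earlier results of these data known. Named beyond the 9 were, per list, the 3 genes with the smallest p and the 1 most abundant, and the 3 most alike in pattern to TMSB4X, ACTB and ACTG1. A further list of actin regulators is not reported here. Gene copies under LOC numbers and protein sequences were not analysed here. Plots used Python 3.11.15 and matplotlib 3.10.9.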

Additional observations from a re-analysis of the deposited data

How the results depend on the processing

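Alternatives were pseudocounts of 0.1 and 5, no filter or a mean FPKM of at least 5, 3 scalings, the replicate block, leaving out each library, and, chosen after seeing the data, rescaling to equal sums of all genes but TMSB4X. Under all of them 0 of the 9 genes and 0 of the 93 other actin genes passed the adjusted threshold. Over all genes the limma count of 0 became 2 (ISG15 and IFI6) with a mean FPKM of at least 5 and with both rescalings to equal sums, and ran from 0 to 2 when a library was left out. The count at an unadjusted p under 0.05 was 1041 with no filter, 358 with a mean FPKM of at least 5, and 335 to 763 without a library. The split of 376 higher and 259 lower became 307 and 358 under quantile normalization. Of the 9 genes, 0 to 2 had an unadjusted p under 0.05 when a library was left out: ACTG1 without control 1, TMSB10 without knockdown 1, and both actins without knockdown 3, where the shares of all tested genes were 6.86%, 7.83% and 7.2%. Groups without overlap then numbered 0 to 4, the 4 being ACTB, ACTG1, CFL1 and SPIRE1 without control 1, where 22.6% of all tested genes did not overlap. Of the other actin genes, 2 had an unadjusted p under 0.05 with a mean FPKM of at least 5, where fewer genes were tested. Without a library the count was 2 to 10, lowest without control 3 or knockdown 2 and highest without knockdown 3. The share of all tested genes moved too. It was 5.89% with a mean FPKM of at least 5, and 4.68%, 3.46% and 7.2% without control 3, knockdown 2 and knockdown 3.

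Deviations of samples with the same number were weakly correlated across genes (0.03, -0.16 and 0.07), and not every sample correlated best with its own number. The main fit used no pairing. With 3 libraries per group these values cannot exclude a shared culture or batch, and the labels do not say. With the replicate block, ACTG1 was the 1 gene of the set with an unadjusted p under 0.05 in limma (adjusted p = 0.635). In that fit 6.47% of all tested genes lay under 0.05, and 0 genes passed the adjusted threshold.

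Directions turned for small differences, and the cause was not tested. Leaving out a library gave -0.18 to 0.0028 for TMSB4X, -0.00068 to 0.17 for PFN2, -0.15 to 0.044 for CFL2, -0.058 to 0.071 for DSTN, -0.39 to 0.14 for ACTA2, -0.0066 to 0.15 for SSH1 and -0.16 to 0.021 for FMNL2. It gave -0.086 to 0.22 for the log2 difference of PFN1 over PFN2 and -0.19 to 0.14 for CFL1 over CFL2. Median-ratio scaling gave -0.0079 for DSTN. Quantile normalization set the TMSB4X difference to 0 by construction, since the top gene of each library receives the same value. The TMSB4X over TMSB10 difference stayed between -0.43 and -0.22 without any 1 library.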
